A study of Homo sapiens with 4 samples.

Results

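The keratin genes of chromosomes 12 and 17 were examined for H3K27ac, a histone mark of active promoters and enhancers. Keratins were defined as all protein-coding genes of GENCODE release 44 whose symbol is KRT followed by a number and an optional letter. This rule gave 55 of 19970 protein-coding genes, 27 on chromosome 12 and 28 on chromosome 17. The 94 KRTAP genes, which encode hair matrix proteins, were not members, although 34 of them lie among the type I keratins on chromosome 17.

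Keratins are the intermediate filament proteins of epithelial cells, and their filaments are built from pairs of 1 type I and 1 type II chain. Type II genes form a cluster on chromosome 12, and type I genes form one on chromosome 17, with the exception of KRT18, a type I gene that sits beside its type II partner KRT8 on chromosome 12. Simple keratins (KRT7, KRT8, KRT18, KRT19 and KRT20) are mainly those of single-layered epithelia, and all of them but KRT20 are also keratins of luminal breast cells. Basal keratins (KRT5, KRT14, KRT15 and KRT17) mark the basal layer of stratified epithelia, and KRT5, KRT14 and KRT17 are also used as markers of basal-like breast cancer. KRT6A, KRT6B, KRT6C and KRT16 are induced in wounded epidermis. The other classes are the 17 hair keratins, 9 keratins of the hair root sheath, 13 keratins of suprabasal or otherwise differentiated layers, and KRT23, KRT80 and KRT222, which were placed in none of these.

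The data were 4 H3K27ac ChIP-seq libraries, 2 for each of MDA-MB-231 and Hs578T, established human lines of triple-negative breast cancer with mesenchymal features. Per the labels, cells of both lines were serum-starved for 8 h, given 10 ng/ml of TWEAK, the cytokine ligand of the receptor Fn14, for 48 h, and kept for 72 h after its washout. The study's own text states a longer period without TWEAK than the labels do. All 4 libraries carry this treatment and no untreated library was analysed here, so the values describe washed-out cells and measure no effect of TWEAK.

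The list labelled MDA-MB-231 replicate 1 stood apart. It held 209 peaks, with a median width of 294 bp, whereas the other 3 lists held 43353 (MDA-MB-231 replicate 2), 46330 (Hs578T replicate 1) and 44920 (Hs578T replicate 2). It held 0 peaks in either keratin cluster and marked 0 of 55 keratins and 12 of all 19970 coding genes (0.0601%). Counting every annotated start raised the latter share to 0.0701%, and counting any peak in the transcript raised it to 0.466%, with 0 keratins in either case. Values of the keratins in the following paragraphs are therefore from the other 3 lists, in the order MDA-MB-231 replicate 2, Hs578T replicate 1, Hs578T replicate 2 where 3 values are given, and MDA-MB-231 rests on 1 list. Between these lists, the bases covered in both divided by the bases covered in either were 0.865 and 0.839 in the chromosome 12 cluster for MDA-MB-231 replicate 2 against the Hs578T lists, and 0.868 between the Hs578T lists. In the chromosome 17 cluster the same index was 0.811 and 0.794 across labels and 0.775 within Hs578T. With 1 list for MDA-MB-231, these values do not show whether the lines differ. Among the markers of the lines, VIM, the mesenchymal intermediate filament, had a promoter peak of 13203, 13413 and 13451 bp in the 3 lists. The epithelial marker CDH1 and the luminal markers ESR1, GATA3 and FOXA1 had none. EPCAM, another epithelial marker, had a peak in MDA-MB-231 replicate 2 (fold enrichment 5.04) and in Hs578T replicate 1 (3.36). TP63, a basal regulator, had one at its canonical start (chr3 position 189631389) in each of the 3 (6.22, 5.62 and 5.41). Promoters of other TP63 isoforms are not described here, so this peak does not show that the isoform of basal cells was marked.

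The promoters of 3 keratins of different classes are shown because they illustrate base compositions that recur among the unmarked members. KRT20, a simple keratin, and KRT5, the basal type II keratin, had no promoter peak in any list, and KRT34, a hair keratin, had one in both Hs578T lists. Each window covers 250 bases before the canonical start site and 50 from it on, on the strand of the gene (hg38). The windows were searched for 3 motifs, namely the GC box GGGCGG on either strand, the TATA box TATAAA on the strand of the gene, and the AP-1 site TGACTCA on either strand, and capitals mark the matches. Of all 19970 coding promoters of this length, 61.3% held a GC box, 7.12% a TATA box and 3.58% an AP-1 site.
KRT20 (chr17:40885193-40885492, minus strand): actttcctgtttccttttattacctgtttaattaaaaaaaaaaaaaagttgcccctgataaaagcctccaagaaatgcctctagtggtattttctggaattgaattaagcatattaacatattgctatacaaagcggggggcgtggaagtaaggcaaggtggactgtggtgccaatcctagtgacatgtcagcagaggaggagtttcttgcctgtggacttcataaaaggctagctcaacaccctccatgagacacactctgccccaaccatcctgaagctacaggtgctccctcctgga
KRT5 (chr12:52520345-52520644, minus strand): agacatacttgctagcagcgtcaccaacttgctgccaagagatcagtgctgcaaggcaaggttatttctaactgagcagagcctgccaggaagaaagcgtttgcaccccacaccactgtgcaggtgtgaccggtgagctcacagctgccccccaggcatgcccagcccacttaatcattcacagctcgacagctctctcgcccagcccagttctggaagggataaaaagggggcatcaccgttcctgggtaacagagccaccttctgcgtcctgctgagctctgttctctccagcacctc
KRT34 (chr17:41382257-41382556, minus strand): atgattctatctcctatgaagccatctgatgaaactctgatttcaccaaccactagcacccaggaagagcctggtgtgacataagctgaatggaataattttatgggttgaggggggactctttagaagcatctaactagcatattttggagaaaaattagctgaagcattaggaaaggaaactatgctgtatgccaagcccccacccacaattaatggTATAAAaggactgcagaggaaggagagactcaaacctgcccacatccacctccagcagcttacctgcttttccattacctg
KRT20 and KRT5 held none of the 3 motifs. KRT34 held a TATA box that begins 31 bases before its start and no CpG in its window.

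A promoter was called marked when a peak overlapped the 1 kb on either side of the canonical start site by at least 1 bp. By this rule 6 of 55 keratins (10.9%), 8 (14.5%) and 6 (10.9%) were marked, against 58.1%, 58.2% and 56.4% of all coding genes in the same lists. The Hs578T lists averaged 7 ± 1.41 marked keratins (SD, n = 2). KRT7, KRT8, KRT18, KRT19 and KRT80 were marked in all 3 lists, where 55.6% of all coding genes were, and KRT16, KRT34 and KRT78 were marked in 1 or 2 lists. The remaining 47 members were marked in none. No test was run on these counts, since 2 libraries a line allow no p below 0.333 in an exact permutation test, two-sided.

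The marked keratins were unevenly spread over the classes. Of the 5 simple keratins, 4 (80%) were marked in each list, with only KRT20 left out. Of the 4 basal keratins 0 were marked in any list, and of the 9 root sheath keratins 0 were. Among the 4 stress-inducible keratins KRT16 alone was marked, in MDA-MB-231 replicate 2 and Hs578T replicate 1. Of the 17 hair keratins 0, 1 and 1 were marked (KRT34, 5.88%), and of the 13 suprabasal keratins 0, 1 and 0 (KRT78, 7.69%). By chain type, 3, 4 and 3 of 29 type I genes and 3, 4 and 3 of 26 type II genes were marked.

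**Figure D1:**
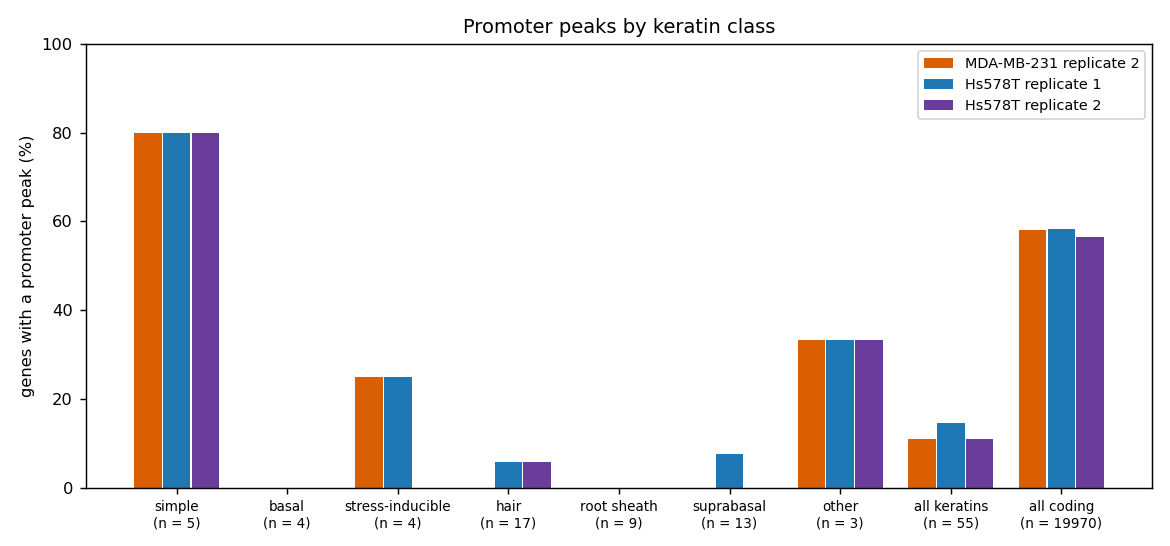
Percentage of genes with an H3K27ac promoter peak (y axis, from 0) by keratin class (x axis, with the number of genes), one bar per list with over 1000 peaks, each bar a single list with no error bar. Simple keratins stood at 80% in each list, basal and root sheath keratins at 0, and all coding genes between 56.4% and 58.2%.

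KRT8 (ENSG00000170421.13) and KRT18 (ENSG00000111057.11), the first keratin pair of simple epithelia, start next to each other in the cluster, at chr12 position 52905076 on the minus strand and 52949118 on the plus strand. The KRT8 promoter peak was 6356, 6584 and 6218 bp wide, with a fold enrichment over the local background of 12.98, 14.8 and 12.6. The KRT18 promoter peak was 7097, 8783 and 8237 bp wide, with a fold enrichment of 10.3, 10.4 and 9.05. Both peaks contained the start site in every list, and their widths ranked above at least 94.5% of the promoter peaks of coding genes. Fold enrichment is a value for a whole peak relative to the background of its own library, so its size was not compared between lists. Within a list it ranked KRT8 above 72.9%, 84.6% and 86.4% of coding promoter peaks, and KRT18 above 57.4%, 66.3% and 69.1%. KRT8 also has 3 annotated starts inside the KRT18 peak, 44748 to 44798 bp from its canonical start, so that peak belongs to the annotated promoters of both genes.

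KRT7 (ENSG00000135480.17, start at chr12 position 52233243, plus strand) and KRT19 (ENSG00000171345.13, start at chr17 position 41528308, minus strand) form another simple pair, common in ducts. KRT7 had the widest promoter peak of all members in both Hs578T lists, and in MDA-MB-231 replicate 2 those of KRT80 and KRT19 were wider. In Hs578T replicates 1 and 2 a single peak of 24805 and 25174 bp covered the whole gene from 4864 and 5039 bp before the start, wider than 99.8% and 99.9% of coding promoter peaks. In MDA-MB-231 replicate 2 the same stretch was called as a promoter peak of 10056 bp and a second peak of 13658 bp. Fold enrichment there was 18.9 for the promoter peak and 8.17 for the second one. The single peaks of Hs578T had 12.02 and 10.02. Within a list the promoter peak ranked above 90.5%, 74.3% and 74.96% of coding promoter peaks in fold enrichment.

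KRT19, the smallest known keratin, had a promoter peak of 10133 bp in MDA-MB-231 replicate 2 and of 4516 and 4286 bp in the Hs578T lists. Its fold enrichment was 10.9, 10.6 and 8.29. Here it was MDA-MB-231 in which neighbouring stretches were joined. In Hs578T a separate peak of 4346 and 4328 bp (fold enrichment 8.82 and 7.03) ran from the far end of KRT19 towards KRT15. KRT15 (ENSG00000171346.16, start at chr17 position 41518890), a type I keratin of basal cells and of the hair follicle bulge, had no peak at its canonical start but was 2055, 2263 and 2316 bp from one. Of its annotated alternative starts, that at 41521719 lay in a peak in all 3 lists, and that at 41521019 lay in a peak in MDA-MB-231 replicate 2 and within 1 kb of one in the Hs578T lists.

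KRT80 (ENSG00000167767.14, start at chr12 position 52192014, minus strand) had the highest fold enrichment of the 5 keratins marked in all 3 lists, at 25.9, 23.8 and 17.7. Its peak was 11042, 12078 and 10944 bp wide and reached 8901, 9291 and 8622 bp into the gene. These values exceeded 97.8%, 97.6% and 96.6% of coding promoter peaks in fold enrichment and at least 98.6% in width. Below KRT80 the order of fold enrichment changed between lists. KRT7 came before KRT8 in MDA-MB-231 replicate 2 and after it in both Hs578T lists, and KRT19 came before KRT18 in the first pair of lists and after it in Hs578T replicate 2. For orientation, the median coding promoter peak was 1792, 1897 and 1804 bp wide with a fold enrichment of 9.18, 8.13 and 6.86, so all 5 of these keratins lay above both medians in each list.

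**Figure D2:**
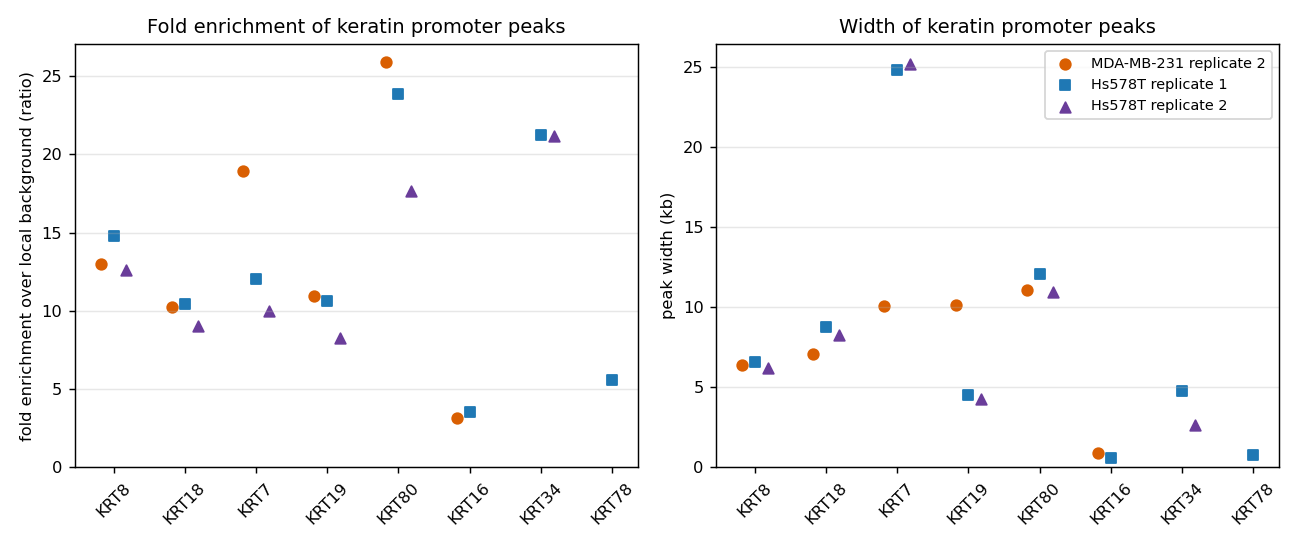
Fold enrichment over the local background (left, a ratio) and width in kb (right) of the promoter peak of each marked keratin, one point per list. KRT80 is highest in fold enrichment among the 5 keratins marked in all 3 lists, KRT7 reaches 25174 bp in Hs578T replicate 2, and KRT16 and KRT78 are narrow and low.

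The other marked keratins differed from these. KRT16 (ENSG00000186832.9, chr17 position 41612767, minus strand), a type I keratin of wounded and hyperproliferative epidermis, had a peak of 894 bp with a fold enrichment of 3.16 in MDA-MB-231 replicate 2 and one of 555 bp with 3.56 in Hs578T replicate 1. The fold enrichments lay above only 1.97% and 7.77% of coding promoter peaks, and the widths above 13.7% and 5.30%. In Hs578T replicate 2 the nearest peak was 53312 bp away. The promoter was thus called in 1 of the 2 Hs578T lists.

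KRT34 (ENSG00000131737.7, chr17 position 41382306, minus strand), a type I keratin of the hair cortex, had a strong peak inside the gene in all 3 lists, and the lists differed in how near it came to the start. In Hs578T replicate 1 it was 4780 bp wide, had a fold enrichment of 21.2 and contained the start. In Hs578T replicate 2 it was 2632 bp wide, with 21.1, and ended 842 bp from the start. In MDA-MB-231 replicate 2 it was 2253 bp wide, with 23.7, and ended 1017 bp from the start, just beyond the 1 kb limit. The absence of a KRT34 promoter call in MDA-MB-231 replicate 2 thus came from the edge of the window, not from the absence of a peak.

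KRT78 (ENSG00000170423.13, chr12 position 52848994, minus strand), a type II keratin of differentiated layers, was the other member at the limit. Its peak lay 993 bp from the start in Hs578T replicate 1 and 1055 and 1061 bp away in MDA-MB-231 replicate 2 and Hs578T replicate 2. It was 572, 750 and 822 bp wide in the 3 lists, with a fold enrichment of 4.61, 5.60 and 5.90. A second annotated start of KRT78, 711 bp into the gene, was within 1 kb of this peak in all 3 lists. With every annotated basic start counted, 9, 10 and 8 keratins were marked and KRT15 and KRT78 joined those marked in all 3. The shares of all coding genes were 60.0%, 60.2% and 58.5% in the single lists and 57.6% in all 3.

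The unmarked keratins lay at very different distances from the nearest peak. KRT20 (chr17 position 40885242), a keratin of intestinal and urothelial epithelium, was 16337, 16157 and 16193 bp from one. KRT5 (chr12 position 52520394), the type II keratin of basal cells, was 211068, 192817 and 192754 bp away, the farthest of the basal keratins. Its partner KRT14 (chr17 position 41586895) was 25602, 25865 and 37402 bp away. KRT17 (chr17 position 41624575), found in basal and myoepithelial cells, was 11185, 11261 and 41504 bp away, and for both KRT14 and KRT17 the first pair of values was set by the weak KRT16 peak. KRT6A, KRT6B and KRT6C were 124506 bp or more from a peak in every list.

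Over all 55 members the median distance from the start to the nearest peak was 19369, 18401 and 23648 bp, against 0, 0 and 3 bp over all coding genes. There were 15, 16 and 13 keratins with a peak within 5 kb of the start, and 19, 18 and 19 with none within 50 kb. Of all coding genes, 62.8%, 63.2% and 61.4% had a peak within 5 kb and 17.2%, 16.8% and 17.4% had none within 50 kb. A peak anywhere in the canonical transcript was found for 14, 15 and 13 keratins, against 66.1%, 66.7% and 65.1% of coding genes. Of 15 textbook type II and type I pairs, KRT8 with KRT18 and KRT7 with KRT19 had both promoters marked in each list, and 11, 11 and 12 pairs, including KRT5 with KRT14 and KRT1 with KRT10, had neither.

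The chromosome 12 cluster, from 52168996 to 52952906, showed acetylation at its ends and none between. It held 22, 22 and 24 peaks, which covered 89142, 94998 and 89238 bp, or 11.4%, 12.1% and 11.4% of its length. The 159 kb with KRT80, KRT7, KRT86, KRT81 and KRT83 were covered at 39.5%, 42.6% and 39.4%, and the 106 kb with KRT78, KRT8 and KRT18 at 25.1%, 25.9% and 25.2%. Between them lay 519471 bp, from 52327641 to 52847111, with 0 peaks in any list. This stretch holds the starts of 19 keratins, from the hair keratin KRT85 through the KRT6 genes, KRT5 and the epidermal KRT1 and KRT2 to KRT79, and no start of another coding gene. Longer stretches without a peak were not rare, with 769 of 43330, 783 of 46307 and 801 of 44897 gaps between neighbouring peaks exceeding the one at this place in the same list.

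**Figure D3:**
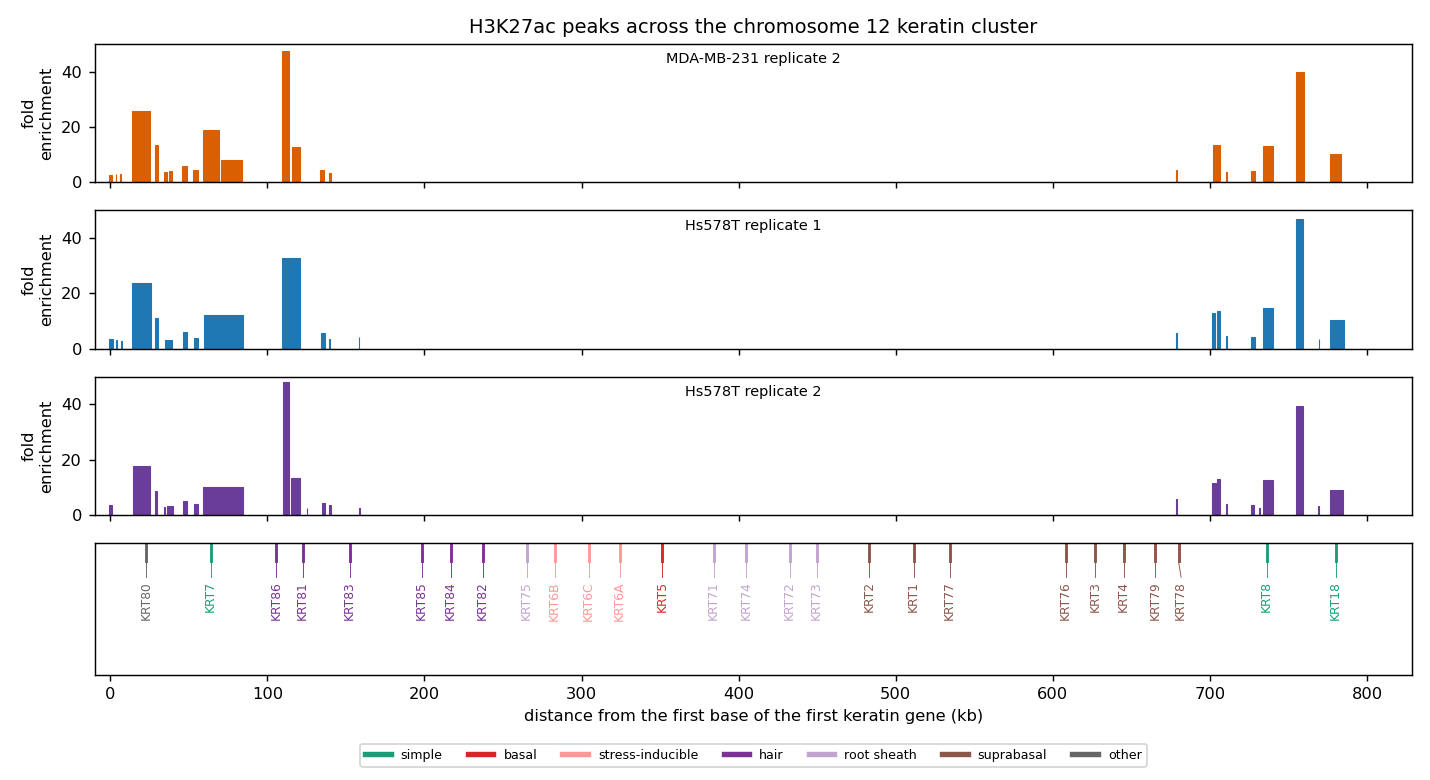
H3K27ac peaks in the chromosome 12 cluster in 3 lists, each peak drawn over its width (x axis, kb from the first base of the first keratin gene) at its fold enrichment (y axis, a ratio), with start sites of the 27 members coloured by class below. Peaks sit near KRT80, KRT7, KRT86 and KRT81 and near KRT78, KRT8 and KRT18, with 0 peaks over the 19 members between.

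The strongest peaks of this cluster were not at canonical promoters. Inside KRT86 (start at 52274645, plus strand), a type II hair keratin whose long transcript runs past that of the hair keratin KRT81 on the other strand, MDA-MB-231 replicate 2 had a peak of 4523 bp at 52278472-52282994 with a fold enrichment of 47.6, rank 11 of its list. Hs578T replicate 2 had one of 4282 bp with 48.0, rank 2 of its list, and Hs578T replicate 1 had a single peak of 11496 bp with 32.8, rank 197. These genes were picked out after their values were seen. In MDA-MB-231 replicate 2 and Hs578T replicate 2 a separate, weaker peak followed, at 52284386-52289549 (fold enrichment 12.8) and 52283866-52289538 (13.3). Only this weaker peak overlapped KRT81 in these lists, since the KRT81 transcript covers 52285913-52291534. The region merged over the lists lies within KRT86. It overlaps the far end of KRT81 and the start of an unnamed long non-coding RNA (ENSG00000257830). It ended 1985, 1946 and 1996 bp from the KRT81 start and began 3827, 3448 and 3962 bp from that of KRT86. Which of these overlapping genes it belongs to cannot be read from the peaks.

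The region upstream of KRT8 was of similar strength. It was 4804, 4961 and 4486 bp wide, with a fold enrichment of 39.9, 46.7 and 39.4, which ranked it 54, 20 and 19 in the lists. An annotated alternative start of KRT8 (52926469) lies inside it, 21393 bp from the canonical one. Within each list its fold enrichment was above that of the KRT8 and KRT18 promoter peaks on either side.

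Both regions were searched for the AP-1 site, the sequence bound by FOS and JUN dimers, because this factor family is a subject of the study. Matches are given with 7 bases on either side and with the match in capitals. The region over KRT86 and KRT81 held 1 match in its 11496 bp (0.087 per kb) and the region upstream of KRT8 held 2 in its 5097 bp (0.392 per kb). In MDA-MB-231 replicate 2 and Hs578T replicate 2 the match over KRT86 and KRT81 lay in the weaker peak, outside the strong one.
KRT86 and KRT81 region (chr12:52286504-52286524, plus strand): cgaaggcTGAGTCAaaattct
KRT8 upstream region, first match (chr12:52925340-52925360, plus strand): ctcaggcTGAGTCAgggctgg
KRT8 upstream region, second match (chr12:52927347-52927367, plus strand): gattcagTGACTCAccaccct
Peaks of the chromosome 12 cluster held 0.367, 0.340 and 0.363 matches per kb and those of the chromosome 17 cluster 0.616, 0.615 and 0.613, against 0.375, 0.365 and 0.371 in all peaks of the lists and 0.157 in chromosomes 1 to 22 and X. The higher value on chromosome 17 comes from 28, 31 and 28 matches. A match describes letters and is not evidence that a factor was bound.

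The chromosome 17 cluster, from 40654665 to 41624842, was less covered. It held 25, 26 and 28 peaks over 45473, 50421 and 45685 bp, or 4.69%, 5.20% and 4.71% of its length, and its highest fold enrichment was 23.7, 22.5 and 21.1. Its longest stretch without a peak was 237404, 225870 and 235907 bp and held the start of the hair keratin KRT33A and those of 16 KRTAP genes, as well as that of KRT33B in MDA-MB-231 replicate 2 and Hs578T replicate 2. After merging over the lists it had 27 acetylated regions, of which 3 were within 1 kb of a keratin start, 5 touched a keratin transcript only further in and 19 lay outside the keratins, while the 24 regions on chromosome 12 divided into 5, 10 and 9. In KRT10, the type I partner of KRT1 in the epidermis, a peak of fold enrichment 11.7, 14.2 and 9.59 lay 2761, 2806 and 2703 bp from the start, over the start of the antisense transcript KRT10-AS1, so it cannot be assigned to KRT10 alone. Peaks inside KRT39 and KRT32, both hair keratins, had fold enrichments of 4.02, 5.40 and 4.66 and of 3.23, 3.06 and 2.91. KRT10, KRT39 and KRT32 were also named after their values were seen.

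**Figure D4:**
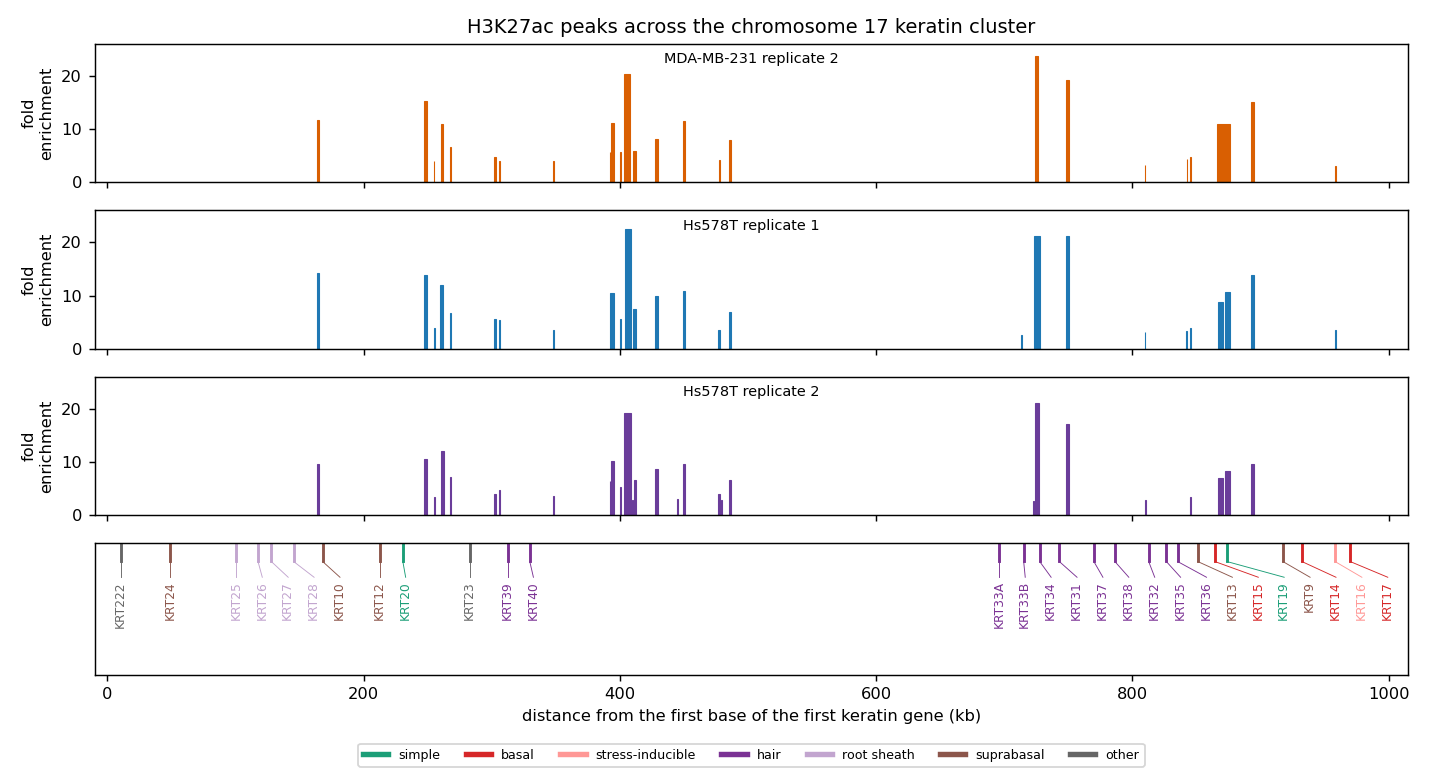
H3K27ac peaks in the chromosome 17 cluster in 3 lists, drawn as for chromosome 12, with start sites of the 28 members coloured by class below. The tall peaks between KRT40 and KRT33A lie among KRTAP genes, and the tall peak at KRT34 lies over a keratin. Another tall peak, between KRT31 and KRT37, lies outside the canonical keratin transcripts. The peak over KRT19 is lower than these last 2 peaks. The KRT16 peak at the right end is missing in Hs578T replicate 2.

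The KRTAP genes in the middle of this cluster give a comparison at the same place. Of 34 KRTAP genes on chromosome 17, 7 (20.6%) were marked in each list, and of all 94 KRTAP genes 8 (8.51%), 9 (9.57%) and 9 (9.57%) were. The shares in the same lists were 10.9%, 14.5% and 10.9% for keratins and 58.1%, 58.2% and 56.4% for all coding genes. The strongest was KRTAP2-3, with a peak of 4734, 5044 and 5299 bp and a fold enrichment of 20.3, 22.5 and 19.3. Members of some KRTAP families are near-identical copies, and how reads with several matches were handled is not given in the sources used here. The same question applies to KRT6A, KRT6B and KRT6C, for KRT81, KRT83 and KRT86 and for KRT33A and KRT33B, so a missing peak at these genes, or a peak at 1 copy, is uncertain.

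Of the 6 coding genes nearest to each cluster, 5 were marked in all 3 lists on chromosome 12 and 3 on chromosome 17, beside 55.6% of all coding genes. On chromosome 12, ATG101 and NR4A1 before the cluster and EIF4B, TNS2 and SPRYD3 after it were marked in all 3 lists, with fold enrichments from 7.30 for SPRYD3 to 20.6 for TNS2, and SMIM41 was not. On chromosome 17, SMARCE1, TNS4 and EIF1 were marked in all 3 lists, and CCR7, GAST and HAP1 in none.

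Other genes of the filament system were counted in the same way, and their counts are read beside the 58.1%, 58.2% and 56.4% of all coding genes. Of 15 other intermediate filament genes 7, 8 and 8 were marked, including VIM (fold enrichment 17.8, 15.1 and 12.1). GFAP was marked in the Hs578T lists only, with 3.11 and 3.19, and DES and PRPH in none. Of 20 genes for the plakins, desmosomes and other linkers of keratin filaments 12, 11 and 10 were marked, among them PLEC (23.5, 13.6 and 10.7), DST (12.8, 8.92 and 7.04), DSP (5.06, 5.70 and 4.23) and EVPL (7.21, 6.02 and 4.92). Of 13 epithelial genes, namely regulators together with CDH1 and EPCAM, 6, 6 and 5 were marked. EPCAM was among them in MDA-MB-231 replicate 2 and Hs578T replicate 1. TP63, ELF3, KLF4 and KLF5 were marked in all 3 lists. GRHL2 was marked in MDA-MB-231 replicate 2 only (5.12), GRHL1 in Hs578T replicate 1 only (2.73), and GRHL3 in none. No test of these shares was made.

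The base composition of the promoters was a property that the choice of genes did not use. Over 300 bases at the start site, the median keratin promoter had a GC content of 48.3% and 3 CpG, with a ratio of observed to expected CpG of 0.188. The median over all coding genes was 63.7%, 23 CpG and 0.776. A TATA box was found in 25 of 55 keratin promoters (45.5%), 20 of them (36.4%) with the first base 35 to 25 bases before the start, where 3.82% of all coding promoters have one. A GC box was found in 13 (23.6%). A TATA box was present anywhere in the window in 6 of 9 root sheath and 10 of 17 hair keratins, among them KRT34 shown above. It began 35 to 25 bases before the start in 4 of the 9 and 8 of the 17.

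Among the 5 keratins marked in all 3 lists the median promoter had a GC content of 65.7%, with 18 CpG and a CpG ratio of 0.558, against 47.3%, 2.5 CpG and 0.171 for the other 50 keratins. A GC box was present in 4 of these 5 and in 9 of the other 50 (18.0%), and a TATA box in 1 of these 5 and in 24 of the other 50 (48.0%). A TATA box that began 35 to 25 bases before the start was found in 0 of these 5 and in 20 of the other 50 (40%). The same direction held over all coding genes, where the ratio was 0.867 for those marked in all 3 lists and 0.430 for the rest. Single promoters departed from it. KRT18 (0.881) and KRT7 (0.732) were rich in CpG, but KRT8 (0.251) and KRT80 (0.158) were as poor as many unmarked members. Conversely, KRT72 of the root sheath (0.715) and KRT222 (0.657) were unmarked. An AP-1 site was found in 1 of the 55 keratin promoters (1.82%).

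**Figure D5:**
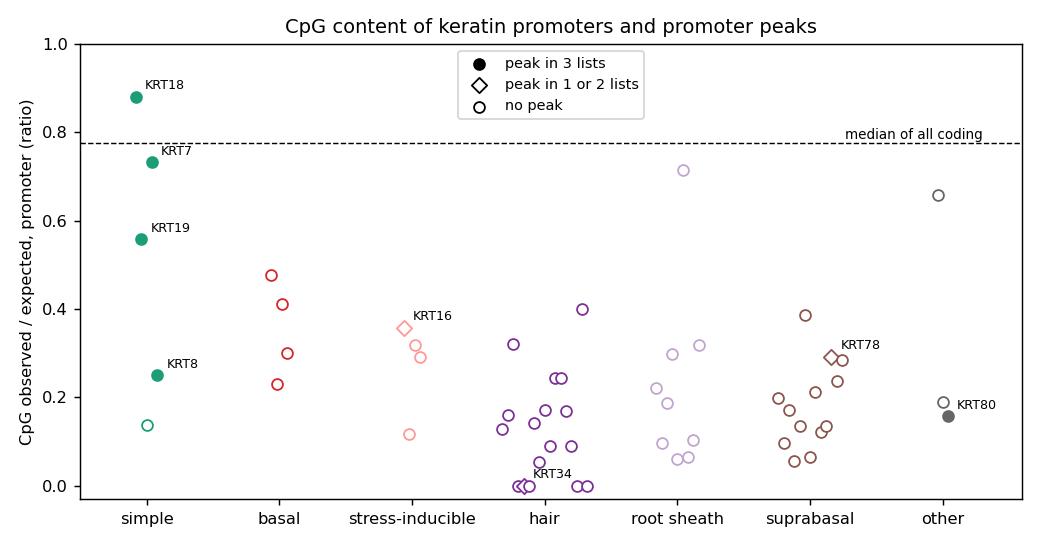
Ratio of observed to expected CpG in the 300-base promoter window (y axis) of each of the 55 keratins by class (x axis, points spread sideways for legibility), filled where a promoter peak was present in all 3 lists with over 1000 peaks. The dashed line is the median of all coding promoters (0.776), which KRT18 alone exceeds.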

How the data were processed

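H3K27ac ChIP-seq was measured in 4 libraries, grouped by line and replicate from the sample titles. The authors trimmed reads with Trimmomatic, mapped them to hg38 with Bowtie2, called peaks per library with MACS2 against input and removed blacklisted regions. Versions and settings were not given in the sources used here, and broad mode was inferred from the 9 deposited columns. Deposited peaks carry a score, a fold enrichment (a ratio over local background), and both p and q as −log10. Depth is unknown, so weak peaks can come and go with depth or input.

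Start sites were those of Ensembl canonical transcripts (GENCODE 44). Overlaps, gaps and motifs were computed in Python 3.11.15 with NumPy 2.4.6 and drawn with matplotlib 3.10.9. Promoter overlap, covered bases, distances and merging were tested on simulated peaks, and gaps and motifs were not. Members, classes and lists were chosen with earlier results of these data known. Named were all members with a promoter peak, simple and basal keratins, members nearest the 1 kb limit, 3 coding neighbours on each side of a cluster, and the first 4 genes of each related list. Promoter sequences were read from hg38, and those of other members than KRT20, KRT5 and KRT34 are not reported here. Alternatives are given in the closing section.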

Additional observations from a re-analysis of the deposited data

How the results depend on the processing

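For 12 results, the keratins marked and the bases covered per line, 94 values were recomputed. A count was taken as moved when it changed by more than 1.5 times, or from or to 0, and a number of bases when it changed by at least 1 SD between replicates, which gave 76 values that did not move and 18 that did. For bases in MDA-MB-231 this SD was 63032.9 bp on chromosome 12 and 32154.3 bp on chromosome 17, above the means of 44571 and 22736.5 bp. Even 0 and 89142 bp on chromosome 12 thus counted as not moved. The MDA-MB-231 values for bases among the 76 therefore show no stability. The main means over both lists of a line, for MDA-MB-231 with its list of 209 peaks included, were 3 marked keratins in MDA-MB-231 and 7 in Hs578T, 2 and 4 of them simple, 0 and 0 basal, and 0 and 1 hair keratins. With a window of 2.5 kb these became 5 keratins in MDA-MB-231 and 10.5 in Hs578T, 0.5 and 1 basal, and 1 and 3 hair keratins. With all basic start sites they became 4.5 and 9 keratins, 0.5 and 1 basal keratin and 0.5 hair keratins in MDA-MB-231. With KRT6A, KRT6B, KRT6C and KRT16 joined, the basal count was 0.5 in both lines. In Hs578T the hair count was 0.5 with a window of 250 bp and 0.5 with at least 200 bp covered. The strongest 50% of peaks covered 76854 bp of the chromosome 12 cluster and 41099.5 bp of the chromosome 17 cluster in Hs578T, against 92118 and 48053 bp. These shifts follow from the changed settings. The basal keratin added with the 2.5 kb window or with all basic start sites was KRT15, and the joined basal count came from KRT16.

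Leaving out 1 library, MDA-MB-231 gave 0 to 6 marked keratins, 0 to 4 simple, 0 basal and 0 hair keratins, and covered 0 to 89142 bp on chromosome 12 and 0 to 45473 bp on chromosome 17, the upper values being those without MDA-MB-231 replicate 1. Hs578T gave 6 to 8 marked keratins, 4 simple, 0 basal and 1 hair keratin, and covered 89238 to 94998 and 45685 to 50421 bp. No paired analysis was possible because the results come from no test. Read depth is unknown and limits what a missing peak can show. With 1 usable list for MDA-MB-231, no difference between the lines was assessed.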

Other observations

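Some of the acetylated regions of the clusters lay between keratins, outside their canonical transcripts, in all 3 lists with over 1000 peaks. Whether transcripts of other genes run through these regions was not examined. On chromosome 17, the region at 41402521-41405541, between KRT31 and KRT37, both hair keratins, had a fold enrichment of 19.3, 21.3 and 17.03 in MDA-MB-231 replicate 2, Hs578T replicate 1 and Hs578T replicate 2. The region at 41547012-41549579, between KRT19 and KRT9, had 15.1, 13.8 and 9.65. The region at 40901399-40904371, between KRT20 and KRT23, had 15.3, 13.9 and 10.5. On chromosome 12, the region at 52870398-52875312, between KRT78 and KRT8, had 13.5, 13.8 and 13.2. Each of these values was above the fold enrichment of the KRT16 promoter peak in the lists that had one. That peak was among the weakest coding promoter peaks, and the regions were picked with their values known. The comparison therefore tells nothing about these regions.

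Among the KRTAP genes of chromosome 17, those with a promoter peak in the 3 lists were 4 of the KRTAP2 family and KRTAP4-6, KRTAP4-7 and KRTAP4-9. KRTAP2-1 had a fold enrichment of 11.2, 10.5 and 10.1 and KRTAP4-9 one of 11.5, 10.9 and 9.67. These genes and regions were named after their values were seen.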
